A study of Mus musculus with 8 samples.

Results

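The organic ion carriers of the Slc22a and Slco families and the transporters of the Abcc family were read out in mouse liver RNA on 8 one-colour arrays. The genes were taken by name: all those called Slc22a, Slco or Abcc followed by a number in the array annotation, which gave 43 of 27591 genes and 66 of 41174 probes. They comprised 18 Slc22a and 15 Slco genes, taken by family together as 33 uptake carriers although 4 Slc22a genes have no settled transport role, and 10 Abcc genes, of which 8 are efflux pumps and 2 (Abcc8 and Abcc9) are channel subunits. Livers of C57BL/6J and of KKAy mice were sampled at 4 and at 11 weeks of age, which gave 4 groups of 2 arrays. C57BL/6J is a standard inbred strain whose disease state the labels give as normal; KKAy is an obese strain carrying the yellow agouti allele, labelled as diabetes at both ages. The mice of all groups ate standard chow and were fasted for 13.5 hours. The labels give neither sex nor whether the 2 samples of a group are different animals; p-values therefore cover the spread between the samples as labelled, and that spread may be technical. KKAy and C57BL/6J differ in genetic background as well as in the agouti allele and in disease state, and these cannot be told apart.

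Hepatocytes take up bile acids, hormones, drugs and other organic ions from the blood through carriers of the sinusoidal membrane. Among these, the organic anion transporting polypeptides (Slco genes) take up large anions such as conjugated steroids and bilirubin, and the Slc22a genes encode carriers of organic cations, organic anions and carnitine. Abcc efflux pumps, the multidrug resistance proteins, use ATP to move conjugates out of the cell, Abcc2 into bile and Abcc3 and Abcc4 back into blood.

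The mouse Slco1 genes lie side by side on chromosome 6. The probes of those read above background lay, on build mm8, at 141648361 to 141648420 for Slco1b2, 141768560 to 141768619 for Slco1a4, 141871298 to 141871357 for Slco1a1 and 142191996 to 142192055 for Slco1a5. The probe of Slco1c1 (141525616 to 141526979) lay before Slco1b2, and that of Slco1a6 (142048593 to 142048652) between Slco1a1 and Slco1a5. Neither of these genes was above background. Beyond Slco1a5 the next member was Abcc9, with its probe at 142546439 to 142546498. Exon and UTR positions of the probes were not analysed here. Because Slco1b2, Slco1a4, Slco1a1 and Slco1a5 did not all move in the same direction between the strains, the 250 bases upstream of their starts are shown. The sequences are from RefSeq on GRCm38.p6, which held a promoter for 34 of the 43 genes. They are reference sequences, and the KKAy sequences were not examined. Capitals mark matches, on either strand, to a STAT5 site (TTCNNNGAA), an HNF1 half-site (GTTAAT), a nuclear receptor half-site (AGGTCA) or a TATA box (TATAAA). No match of one motif overlapped a match of another in these windows.
Slco1b2 (plus strand, chr6:141629268-141629517): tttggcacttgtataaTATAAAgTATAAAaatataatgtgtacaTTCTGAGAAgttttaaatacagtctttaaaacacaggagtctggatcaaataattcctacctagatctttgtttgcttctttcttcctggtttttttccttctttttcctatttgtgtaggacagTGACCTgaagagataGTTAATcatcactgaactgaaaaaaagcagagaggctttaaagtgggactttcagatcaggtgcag
Slco1a4 (minus strand, chr6:141856221-141856470): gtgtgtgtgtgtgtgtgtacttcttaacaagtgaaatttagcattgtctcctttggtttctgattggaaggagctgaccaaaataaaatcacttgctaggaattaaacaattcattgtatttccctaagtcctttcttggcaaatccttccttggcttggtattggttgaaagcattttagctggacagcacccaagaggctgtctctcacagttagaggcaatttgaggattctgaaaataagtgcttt
Slco1a1 (minus strand, chr6:141946963-141947212): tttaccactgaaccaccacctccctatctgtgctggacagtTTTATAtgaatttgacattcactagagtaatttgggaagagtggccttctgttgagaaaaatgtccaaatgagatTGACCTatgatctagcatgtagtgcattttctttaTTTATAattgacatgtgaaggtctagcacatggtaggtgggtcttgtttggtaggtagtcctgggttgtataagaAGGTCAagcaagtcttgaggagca
Slco1a5 first promoter (minus strand, chr6:142322982-142323231): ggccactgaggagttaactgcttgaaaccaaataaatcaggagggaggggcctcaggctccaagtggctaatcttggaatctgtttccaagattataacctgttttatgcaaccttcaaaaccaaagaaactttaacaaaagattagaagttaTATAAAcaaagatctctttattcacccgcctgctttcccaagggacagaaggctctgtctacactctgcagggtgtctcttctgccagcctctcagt
Slco1a5 second promoter (minus strand, chr6:142278875-142279124): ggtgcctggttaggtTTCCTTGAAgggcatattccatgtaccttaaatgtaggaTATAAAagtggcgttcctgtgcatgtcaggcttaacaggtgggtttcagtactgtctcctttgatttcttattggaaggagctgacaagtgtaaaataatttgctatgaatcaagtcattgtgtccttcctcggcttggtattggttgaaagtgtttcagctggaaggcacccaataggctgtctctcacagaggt

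Over 32851 promoters of the same window, the STAT5 site was found in 7.02%, the HNF1 half-site in 6.43%, the nuclear receptor half-site in 14.0% and the TATA box in 12.4%. Slco1b2 held a match to all 4 motifs, with the STAT5 site starting at position -206 and the HNF1 half-site at -66. Slco1a1 held nuclear receptor half-sites at -134 and -24, and Slco1a4 held no match to these letters. The second promoter of Slco1a5 held a STAT5 site at -235. It shared a run of 20 bases with the promoter of Slco1a4, against runs of 7 to 9 bases in the other 9 pairs. These matches are letters in a window and are not shown to be bound.

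Of the 43 genes, 30 were measured, that is, well above background on the 2 arrays of some group: 13 Slc22a, 8 Slco, 7 efflux pumps and both channel subunits. The other 13 (Abcc12, Slc22a2, Slc22a13, Slc22a14, Slc22a19, Slc22a20, Slco1a6, Slco1c1, Slco4c1, Slco5a1, Slco6b1, Slco6c1 and Slco6d1) were well above background on 0 of 8 arrays with any of their 17 probes. Levels are log2 processed signal relative to the 75th percentile of the array, so that 0 is the level of a fairly bright probe; a level depends on its probe and is not set against that of another gene. Differences are KKAy minus C57BL/6J or 11 minus 4 weeks on the log2 scale, with the standard error (SE) and p adjusted over all genes by limma with Benjamini-Hochberg adjustment, and a gene is called changed at an adjusted p under 0.05. The SE of a gene is the same in all 4 comparisons of 2 groups. The strain comparisons and the age comparisons use the same arrays, so their values are given side by side and are not independent.

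The arrays had 75th percentiles of 476.1 to 1192 fluorescence units and 56.3% to 66.7% of spots well above background. No spot was saturated, and arrays within a group had a median SD of 0.126 to 0.222. Each age was run on a slide of its own, and the effects of age and slide cannot be told apart. On both slides C57BL/6J took positions 1 and 2 and KKAy positions 3 and 4, so strain and position cannot be told apart either. All 7 measured hepatocyte markers of 10 in the list were read, with a summed linear level of 1557 to 2213 over the 8 arrays, and in KKAy 1 was called lower at 4 weeks, and 1 higher and 3 lower at 11 weeks. Among all genes, 8.99% were lower at 4 weeks, and 9.96% were higher and 11.5% lower at 11 weeks. Of 10 kidney markers, 9 were not above background; kidney expresses many of the same carriers. In bulk RNA, fewer cells of a type and less RNA per cell cannot be told apart.

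At 4 weeks, 5 of the 30 measured transporters were higher in KKAy liver (Slc22a7, Slc22a17, Slco1a1, Abcc4 and Abcc9) and 5 were lower (Slco1a4, Slco1a5, Abcc1, Abcc5 and Abcc6), while 15.4% of all 17045 genes tested were called, 6.41% higher and 8.99% lower. At 11 weeks, 6 were higher (among them Slco1b2, Slco1a1, Slc22a7, Slc22a17 and Abcc4) and 6 lower (Slco1a4, Slco1a5, Slco4a1, Abcc1, Abcc6 and Abcc9), against 21.5% of all 17046 genes, 9.96% higher and 11.5% lower. The measured members' median difference was 0.11 at 4 weeks and -0.11 at 11 weeks, beside 0.01 and -9.9e-05 over all genes. Of the 30, 27 were well above background on all 8 arrays, and 10 and 11 of these 27 were called at 4 and 11 weeks. The other 3 (Slco4a1, Abcc8 and Abcc10) passed the background filter only through groups in which they were brighter. Slco1a4, Slco1b2, Slco4a1, Slc22a7 and Abcc6 had 1 probe each on the array, and Slco1a5 and Slc22a17 had 1 kept probe each. Their differences therefore have no second probe as a check. Whether the probes match the KKAy sequence was not tested.

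**Figure D1:**
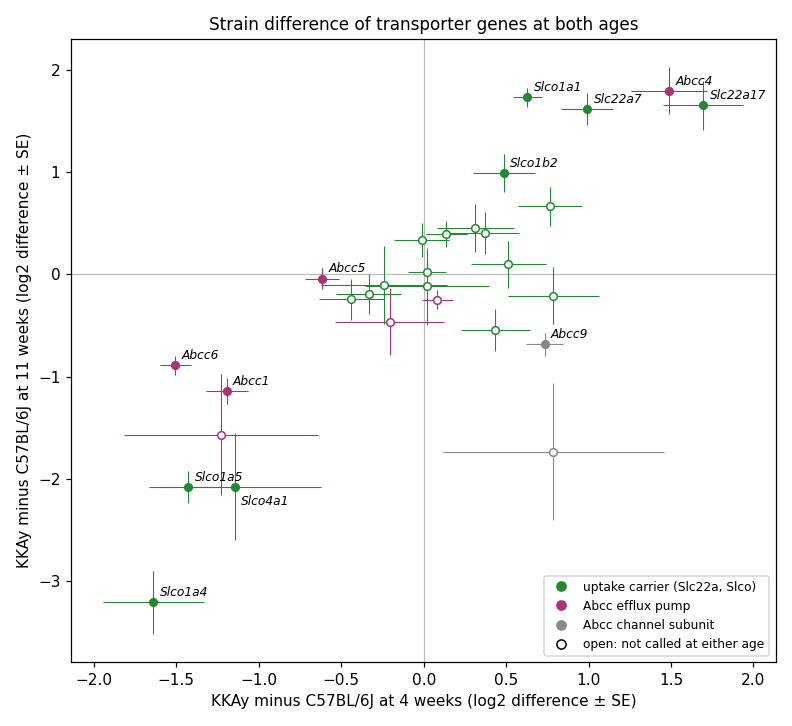
Difference between KKAy and C57BL/6J liver (log2) at 4 weeks on the horizontal axis and at 11 weeks on the vertical axis for 29 of the 30 measured transporters; green are uptake carriers, purple efflux pumps and grey channel subunits, bars are SE, and filled symbols were called at either age. Slco1a4 lies lowest at -1.64 and -3.21, Abcc4 and Slc22a7 lie high at both ages, and Abcc9 is higher at 4 weeks (0.73) and lower at 11 weeks (-0.68).

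Among the Slco uptake carriers, neighbouring genes differed between the strains in opposite directions. At 4 weeks 1 of 8 was higher in KKAy and 2 were lower, and at 11 weeks 2 were higher and 3 lower, with medians of -0.21 and -0.18. The shares over all genes were 6.41% higher and 8.99% lower at 4 weeks, and 9.96% and 11.5% at 11 weeks. Slco1a4, an uptake carrier of digoxin, bile acids and steroid conjugates, had the widest strain difference of the 30 genes at 11 weeks. It was read by 1 probe. Its level was 3.76 and 3.32 in C57BL/6J at 4 weeks, 3.01 and 2.69 in C57BL/6J at 11 weeks, 2.19 and 1.62 in KKAy at 4 weeks, and -0.05 and -0.67 in KKAy at 11 weeks. Every KKAy array was below every C57BL/6J array. The KKAy level was 3.11-fold lower at 4 weeks (log2 difference -1.64, SE 0.30, adjusted p 0.018 by limma) and 9.23-fold lower at 11 weeks (-3.21, adjusted p 0.00135). Slco1a4 fell with age in KKAy (-2.26, adjusted p 0.00618), while the age difference in C57BL/6J was -0.69 (adjusted p 0.282). The difference between these age effects, -1.57 (SE 0.43), did not pass the test (adjusted p 0.126).

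Slco1a5, a close relative that takes up bile acids and thyroid hormone, moved the same way. It read 0.08 and -0.06 in C57BL/6J at 4 weeks, -0.71 and -1.01 in C57BL/6J at 11 weeks, -1.27 and -1.56 in KKAy at 4 weeks, and -2.92 and -2.96 in KKAy at 11 weeks. The 4 groups did not overlap, with C57BL/6J at 4 weeks highest and KKAy at 11 weeks lowest. Slco1a5 was lower in KKAy at 4 weeks (-1.43, SE 0.16, adjusted p 0.00306 by limma, 2.69-fold) and at 11 weeks (-2.08, adjusted p 0.00065, 4.22-fold). It fell with age in both strains, with -0.87 in C57BL/6J (adjusted p 0.0273 by limma) and -1.52 in KKAy (adjusted p 0.00267). The interaction of -0.65 was not called (adjusted p 0.205). The age call in C57BL/6J was lost with median scaling and with scaling to the spike-ins. It was also lost without the background filter and in a fit of only the groups compared. With normexp background correction the 11-week strain difference was -1.29 and the age difference in KKAy -0.81, both still called (adjusted p 0.00212 and 0.0147). The Slco1a genes are close paralogs, and cross-hybridization between them was not tested.

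Slco1a1, the sulphated steroid and bile acid carrier of mouse hepatocytes that is known as male-predominant, went the other way. Its level was 2.09 and 2.05 in C57BL/6J at 4 weeks, 1.94 and 1.93 in C57BL/6J at 11 weeks, 2.70 and 2.69 in KKAy at 4 weeks, and 3.68 and 3.65 in KKAy at 11 weeks. The KKAy arrays were above those of C57BL/6J at both ages. The difference was 0.63 at 4 weeks (SE 0.09, adjusted p 0.00718 by limma, 1.55-fold) and 1.73 at 11 weeks (adjusted p 0.000209, 3.32-fold). Slco1a1 rose with age in KKAy (0.97, adjusted p 0.00195) and differed by -0.13 in C57BL/6J (adjusted p 0.513), and the interaction was 1.10 (SE 0.13, adjusted p 0.0129). A second probe of Slco1a1 gave smaller differences, -0.03 at 4 weeks and 0.68 at 11 weeks, with 0.71 for the interaction, and none of these was called (adjusted p 0.97, 0.146 and 0.46); its rise with age in KKAy was 0.87 (adjusted p 0.0841). With the mean of the probes the 4-week difference was 0.30 (adjusted p 0.3).

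Slco1b2, which takes up bilirubin and bile acids in hepatocytes, read 6.95 and 7.22 in C57BL/6J at 4 weeks, 7.15 and 7.35 in C57BL/6J at 11 weeks, 7.44 and 7.71 in KKAy at 4 weeks, and 8.05 and 8.43 in KKAy at 11 weeks. KKAy was above C57BL/6J at both ages. Only the 11-week difference passed the test (0.99, SE 0.19, adjusted p 0.0153 by limma, 1.99-fold); the 4-week value was 0.49 (adjusted p 0.161). The difference between the ages, 0.50, did not pass (adjusted p 0.424).

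Of the remaining measured Slco members, Slco4a1 alone was called, for strain at 11 weeks. Slco4a1, a thyroid hormone carrier, was near background: it read -5.45 and -4.84 in C57BL/6J and -7.36 and -7.09 in KKAy at 11 weeks, and was well above background on 0 of 4 KKAy arrays. It was called lower in KKAy at 11 weeks (-2.08, SE 0.52, adjusted p 0.039 by limma), but no fold is given because its C57BL/6J level was not above the lowest signal that counts as well above background on the KKAy arrays. With another background correction (normexp) the value was -0.23 (adjusted p 0.701). Slco2a1, the prostaglandin carrier, differed by -0.44 and -0.25 at 4 and 11 weeks, Slco2b1 by 0.51 and 0.10, and Slco3a1 by 0.02 and -0.12, and none of these passed the test in any comparison.

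Leaving out 1 array at a time changed no direction here but ended some Slco calls. For Slco1a4 at 4 weeks the adjusted p rose to 0.102 (value -1.42) and 0.052 (-1.86) without replicates 1 and 2 of C57BL/6J at 4 weeks, and to 0.0895 (-1.35) without replicate 2 of KKAy at 4 weeks. The 4-week call of Slco1a1 was lost at adjusted p 0.0573 (0.61), 0.0522 (0.62) and 0.0516 (0.64) without replicate 2 of C57BL/6J or replicate 1 or 2 of KKAy at that age. The 11-week call of Slco1b2 was lost at 0.106 (0.89), 0.0634 (1.09) and 0.0638 (0.80) without replicates 1 or 2 of C57BL/6J or replicate 2 of KKAy at 11 weeks. The fall of Slco1a5 with age in C57BL/6J was lost without any 1 of the 4 C57BL/6J arrays, with adjusted p from 0.0736 (-1.02) to 0.169 (-0.72). The Slco4a1 call was lost without either array of C57BL/6J at 4 weeks, of C57BL/6J at 11 weeks or of KKAy at 11 weeks, with adjusted p from 0.0667 (-2.08) to 0.186 (-1.77).

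**Figure D2:**
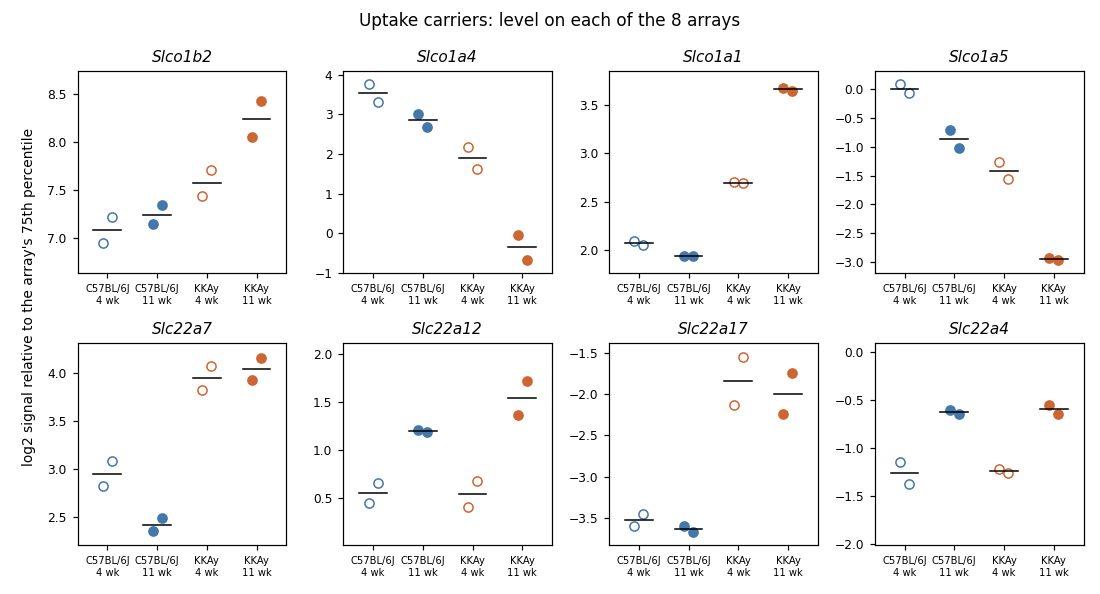
Level of 8 uptake carriers on each array (log2 processed signal relative to the 75th percentile of the array), with blue for C57BL/6J, orange for KKAy, open symbols for 4 weeks, filled for 11 weeks and a bar at the mean of 2 arrays; each panel has its own range. Slco1a4 falls from 3.76 to -0.67 and Slco1a5 from 0.08 to -2.96 across the groups, while Slco1a1, Slc22a7 and Slc22a17 are higher on every KKAy array than on the C57BL/6J arrays.

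Of the 13 measured Slc22a carriers, 2 were higher in KKAy at 4 weeks and 3 at 11 weeks, beside 6.41% and 9.96% of all genes, and 0 were lower at either age by limma, beside 8.99% and 11.5% of all genes, while 4 and 6 of the 13 had an unadjusted p under 0.05 in either direction. Their median differences were 0.31 and 0.40. Slc22a7, which carries organic anions such as prostaglandins and nucleotides at the sinusoidal membrane, read 2.82 and 3.08 in C57BL/6J at 4 weeks, 2.36 and 2.49 in C57BL/6J at 11 weeks, 3.82 and 4.07 in KKAy at 4 weeks, and 3.92 and 4.16 in KKAy at 11 weeks. All 4 KKAy arrays were above all 4 C57BL/6J arrays. The difference was 0.99 at 4 weeks (SE 0.16, adjusted p 0.0103 by limma, 1.99-fold) and 1.61 at 11 weeks (adjusted p 0.00148, 3.06-fold). Its age differences, -0.53 in C57BL/6J (adjusted p 0.116) and 0.09 in KKAy (adjusted p 0.742), did not pass. The 4-week call was lost at adjusted p 0.0646 (0.86) without replicate 1 of C57BL/6J and 0.0629 (0.87) without replicate 2 of KKAy at that age.

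Slc22a17, which is known as a receptor for the iron-binding protein lipocalin-2, read -3.60 and -3.46 in C57BL/6J at 4 weeks, -3.61 and -3.67 in C57BL/6J at 11 weeks, -2.13 and -1.54 in KKAy at 4 weeks, and -2.23 and -1.74 in KKAy at 11 weeks. It was higher on each KKAy array at both ages, by 1.70 at 4 weeks (SE 0.24, adjusted p 0.00718 by limma, 3.24-fold) and 1.65 at 11 weeks (adjusted p 0.00648, 3.14-fold). Its age differences were -0.11 in C57BL/6J and -0.16 in KKAy. With normexp the 11-week strain difference was 0.99 (adjusted p 0.0498). The 11-week adjusted p was 0.0511 (1.62) without replicate 2 of C57BL/6J at 11 weeks.

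Slc22a4, the ergothioneine carrier, did not differ between strains beyond its error but changed with age. It read -1.15 and -1.37 in C57BL/6J and -1.22 and -1.26 in KKAy at 4 weeks, and -0.60 and -0.64 in C57BL/6J and -0.55 and -0.65 in KKAy at 11 weeks. The strain difference was 0.02 at each age, with a 95% interval of -0.26 to 0.30. Slc22a4 rose by 0.64 with age in each strain (SE 0.12), which is 1.56-fold. The adjusted p by limma was 0.0271 in C57BL/6J and 0.0159 in KKAy. Both age calls of Slc22a4 were lost with scaling to the spike-ins, without the background filter and in fits of only the groups compared. Its age call in C57BL/6J was lost without any 1 of the 4 C57BL/6J or of the 4-week KKAy arrays, with adjusted p from 0.061 (0.75) to 0.187 (0.62). In KKAy it was lost without replicate 1 or 2 at 4 weeks or replicate 1 at 11 weeks, from 0.0719 (0.59) to 0.0888 (0.62).

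Slc22a5, the carnitine carrier, and its neighbour on chromosome 11, Slc22a21, another carnitine carrier, gave differences of opposite sign at the 2 ages. None of these passed in the fit used here, which does not pair same-numbered arrays. Slc22a5 read 2.55 and 2.24 in C57BL/6J at 4 weeks, 3.14 and 2.90 in C57BL/6J at 11 weeks, 2.99 and 2.66 in KKAy at 4 weeks, and 2.67 and 2.28 in KKAy at 11 weeks. Its strain difference was 0.43 at 4 weeks (adjusted p 0.258 by limma) and -0.54 at 11 weeks (adjusted p 0.126), with an interaction of -0.98 (adjusted p 0.154), and a second probe gave 0.78 and -0.23 for the strain differences. For Slc22a21 the strain values were 0.79 and -0.21 and the interaction -0.99 (adjusted p 0.262). Slc22a3, a polyspecific cation carrier, was near the threshold with 0.76 at 4 weeks (adjusted p 0.0507) and 0.66 at 11 weeks (adjusted p 0.0612). The carnitine carrier Slc22a16 differed by -0.33 and -0.19.

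Slc22a12, the urate carrier best known from kidney, rose with age in KKAy. It read 0.41 and 0.68 in KKAy at 4 weeks and 1.36 and 1.71 in KKAy at 11 weeks, against 0.45 and 0.66 and then 1.21 and 1.19 in C57BL/6J. The KKAy rise was 0.99 (SE 0.17, adjusted p 0.013 by limma, 1.99-fold) and the C57BL/6J value was 0.64 (adjusted p 0.0815); the interaction, 0.35, was not called. The KKAy call was lost at adjusted p 0.0719 (0.86) without replicate 1 at 4 weeks and 0.051 (0.82) without replicate 2 at 11 weeks. Slc22a18 read 5.14 and 5.33 in C57BL/6J at 4 weeks, 5.33 and 5.39 in C57BL/6J at 11 weeks, 5.29 and 5.45 in KKAy at 4 weeks, and 5.68 and 5.84 in KKAy at 11 weeks, with strain differences of 0.14 and 0.40 (adjusted p 0.0767 at 11 weeks). Slc22a15 (0.31 and 0.45), Slc22a8 (0.37 and 0.41) and Slc22a6 (-0.24 and -0.11), the last pair being organic anion transporters best known from kidney, did not pass in any comparison on their brightest probes. A second probe of Slc22a15, above background on 4 of 8 arrays, gave strain differences of 1.03 (SE 0.19) and 0.22. It gave -0.94 for age in KKAy, where the brightest probe gave 0.62. For Slc22a6 a second probe gave strain differences of the other sign, 0.35 and 0.13.

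Of the 7 measured Abcc efflux pumps, 1 was higher and 3 were lower in KKAy at 4 weeks, and 1 was higher and 2 lower at 11 weeks, with medians of -0.62 and -0.46. Of all genes, 6.41% were higher and 8.99% lower at 4 weeks, and 9.96% and 11.5% at 11 weeks. Abcc4, which exports bile acids, cyclic nucleotides and conjugates at the sinusoidal membrane, was the higher one at both ages. It read -0.92 and -0.60 in C57BL/6J at 4 weeks, -0.99 and -0.64 in C57BL/6J at 11 weeks, 0.56 and 0.90 in KKAy at 4 weeks, and 0.76 and 1.20 in KKAy at 11 weeks. All 4 KKAy arrays were above all 4 C57BL/6J arrays. The difference was 1.49 at 4 weeks (SE 0.23, adjusted p 0.00948 by limma, 2.81-fold) and 1.79 at 11 weeks (adjusted p 0.00408, 3.47-fold), and a second probe gave 0.85 (adjusted p 0.105) and 1.10 (adjusted p 0.0381). The 4-week call was lost at adjusted p 0.0612 (1.33) without replicate 1 of C57BL/6J and 0.0578 (1.32) without replicate 2 of KKAy at that age.

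Abcc6, a hepatocyte protein through which ATP is released and whose loss causes ectopic mineralization, was lower in KKAy. It read 1.03 and 0.98 in C57BL/6J at 4 weeks, 0.73 and 0.71 in C57BL/6J at 11 weeks, -0.53 and -0.48 in KKAy at 4 weeks, and -0.14 and -0.20 in KKAy at 11 weeks. Every KKAy array was below every C57BL/6J array. The difference was -1.51 at 4 weeks (SE 0.09, adjusted p 0.000491 by limma, 2.84-fold) and -0.89 at 11 weeks (adjusted p 0.00187, 1.85-fold). The difference between the ages, 0.62, did not pass (adjusted p 0.0679).

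Abcc1, a glutathione conjugate pump with broad tissue expression, read -1.83 and -1.99 in C57BL/6J at 4 weeks, -2.38 and -2.53 in C57BL/6J at 11 weeks, -3.05 and -3.15 in KKAy at 4 weeks, and -3.49 and -3.70 in KKAy at 11 weeks. It was lower on the KKAy arrays of each age, with -1.19 at 4 weeks (SE 0.13, adjusted p 0.00287 by limma, 2.29-fold) and -1.14 at 11 weeks (adjusted p 0.00259, 2.2-fold), and its other probes gave -0.74 and -0.96 at 4 weeks and -0.68 and -0.59 at 11 weeks. With normexp background correction the differences were smaller, -0.62 (adjusted p 0.0219) and -0.47 (adjusted p 0.0453). Most markers of Kupffer cells and macrophages were also lower in KKAy. Of 10 such markers, all measured, 9 were lower at 4 weeks and 6 at 11 weeks, beside 8.99% and 11.5% of all genes. Their summed linear levels were 115 to 132 in C57BL/6J at 4 weeks, 52.4 to 54.9 in C57BL/6J at 11 weeks, 52.8 to 56.6 in KKAy at 4 weeks and 32.3 to 32.6 in KKAy at 11 weeks. The sums of C57BL/6J at 11 weeks and KKAy at 4 weeks overlapped. Lymphocyte markers, 10 measured, summed to 3.38 to 4.04 and then 1.44 to 1.61 in C57BL/6J, and to 1.44 to 1.80 and then 1.01 to 1.30 in KKAy. The part of either set of markers in the Abcc1 values was not tested.

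Abcc5, an exporter of cyclic nucleotides and heme, read -1.60 and -1.68 in C57BL/6J at 4 weeks, against -2.32 and -2.47 in C57BL/6J at 11 weeks, -2.22 and -2.29 in KKAy at 4 weeks and -2.42 and -2.46 in KKAy at 11 weeks. The 2 arrays of C57BL/6J at 4 weeks stood above the other 6. It was lower in KKAy at 4 weeks (-0.62, SE 0.10, adjusted p 0.013 by limma, 1.53-fold), differed by -0.04 at 11 weeks, and fell with age in C57BL/6J (-0.75, adjusted p 0.0105, 1.69-fold). The macrophage and lymphocyte markers above had the same highest group, and their part was not tested. Of the other probes of Abcc5, one gave -0.65 (SE 0.24) for strain at 4 weeks and another, with a far wider error, 0.83 (SE 1.16), and the mean of its probes gave -0.14 (adjusted p 0.878). Normexp gave a strain value of -0.38 (adjusted p 0.0677), scaling to the spike-ins gave -0.37 (adjusted p 0.332), and the age value with normexp was -0.40 (adjusted p 0.1). Both calls were lost without any 1 array of the groups compared, with adjusted p from 0.0626 (-0.65) to 0.0869 (-0.58) for strain and from 0.0609 (-0.83) to 0.101 (-0.68) for age.

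Abcc2 and Abcc3, the main pumps for bilirubin and drug conjugates, were not called in any comparison. Abcc2 read 3.64 and 3.65 in C57BL/6J at 4 weeks, 3.70 and 3.71 in C57BL/6J at 11 weeks, 3.69 and 3.76 in KKAy at 4 weeks, and 3.43 and 3.48 in KKAy at 11 weeks. The KKAy arrays at 11 weeks were the lowest, but the strain difference there, -0.25 with a 95% interval of -0.48 to -0.02, had an adjusted p of 0.121 by limma. At 4 weeks it was 0.08, with an interval of -0.15 to 0.31. Abcc3 read 4.56 and 5.15 in C57BL/6J at 4 weeks, 4.77 and 5.03 in C57BL/6J at 11 weeks, 4.33 and 4.96 in KKAy at 4 weeks, and 4.12 and 4.75 in KKAy at 11 weeks. Its strains overlapped at 4 weeks, while at 11 weeks both KKAy arrays lay just below both C57BL/6J arrays. Neither difference was called, and the intervals of -1.02 to 0.60 at 4 weeks and -1.27 to 0.35 at 11 weeks leave room for a difference of over 1 in level. Abcc10, above background on 5 of 8 arrays, differed by -1.23 and -1.57 and was not called.

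**Figure D3:**
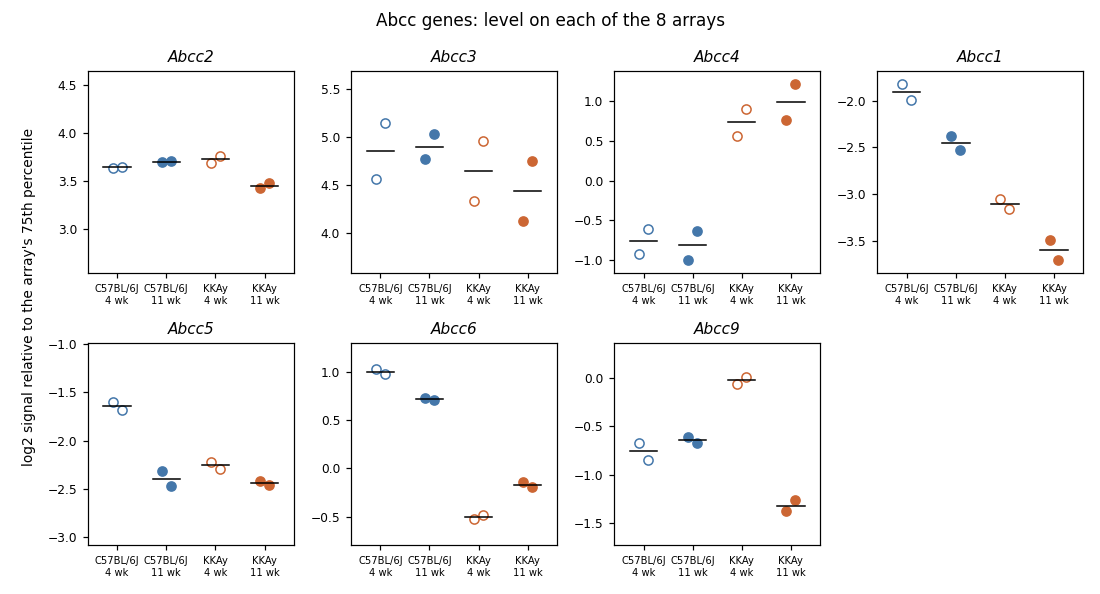
Level of 7 Abcc genes on each array (log2 processed signal relative to the 75th percentile of the array), with blue for C57BL/6J, orange for KKAy, open symbols for 4 weeks, filled for 11 weeks and a bar at the mean of 2 arrays; each panel has its own range. Abcc4 is higher and Abcc1 and Abcc6 are lower on every KKAy array, Abcc2 spans only 3.43 to 3.76, and Abcc9 is highest in KKAy at 4 weeks and lowest in KKAy at 11 weeks.

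The channel subunit Abcc9, a regulatory subunit of ATP-sensitive potassium channels, known from vascular and mural cells, was higher in KKAy at 4 weeks and, on its brightest probe, lower at 11 weeks. It read -0.67 and -0.85 in C57BL/6J at 4 weeks, -0.61 and -0.67 in C57BL/6J at 11 weeks, -0.06 and 0.01 in KKAy at 4 weeks, and -1.38 and -1.26 in KKAy at 11 weeks. KKAy was above C57BL/6J at 4 weeks (0.73, SE 0.11, adjusted p 0.00893 by limma, 1.66-fold) and below it at 11 weeks (-0.68, adjusted p 0.00926, 1.6-fold). It fell with age in KKAy (-1.30, adjusted p 0.00154, 2.46-fold) and differed by 0.12 with age in C57BL/6J (adjusted p 0.669), and the interaction was -1.42 (SE 0.16, adjusted p 0.0116). Its other probes gave 1.05 and 1.44 at 4 weeks, -0.21 and -0.02 at 11 weeks, and -1.26 and -1.47 for the interaction. On the second brightest probe the 4-week difference and the fall in KKAy were called (adjusted p 0.0185 and 0.0144), and the 11-week difference and the interaction were not (adjusted p 0.532 and 0.0807).

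Most markers of stellate cells also fell with age in KKAy: 7 of 10, all measured, were called lower, beside 10.7% of all genes. In C57BL/6J, where Abcc9 was not called with age, 3 of these 10 were called lower, beside 6.46% of all genes. The summed linear level of the stellate cell markers was 53.7 to 61.6 in KKAy at 4 weeks and 29.7 to 35.8 in KKAy at 11 weeks, against 63.8 to 71.7 and 49.6 to 53.6 in C57BL/6J. Endothelial markers, 10 of 10 measured, summed to 61.9 to 64.7 in KKAy at 4 weeks and 46.2 to 46.3 at 11 weeks, against 46.9 to 47.5 and 38.7 to 39.9 in C57BL/6J. Their part in the Abcc9 values was not tested. The strain calls of Abcc9 were lost at adjusted p 0.0619 (0.65) and 0.0628 (0.70) without replicate 2 of C57BL/6J or of KKAy at 4 weeks, and at 0.0784 (-0.65) and 0.0615 (-0.71) without replicate 1 or 2 of C57BL/6J at 11 weeks. The 11-week call was also lost with the mean of all its probes (-0.30, adjusted p 0.267) and after scaling to the spike-ins (-0.61, adjusted p 0.128). The other channel subunit, Abcc8, was above background on the 2 C57BL/6J arrays at 11 weeks and not on the other 6, and was not called.

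The uptake carriers and the efflux pumps were then set side by side. At 4 weeks the 21 uptake carriers had 3 members called higher and 2 lower and a median difference of 0.20, with 14 values above and 7 below 0, against a median of -0.62 for the 7 efflux pumps with 2 above and 5 below. At 11 weeks 5 uptake carriers were higher and 3 lower with a median of 0.10, against -0.46 for the pumps, of which 1 value was above and 6 below 0. The shares of all genes called were 6.41% higher and 8.99% lower at 4 weeks, and 9.96% and 11.5% at 11 weeks. The uptake median exceeded the efflux median by 0.81 at 4 weeks and 0.56 at 11 weeks, but the 4-week gap was 0.43 with normexp background correction and 0.37 with the mean of all probes of a gene. Among the 20 uptake carriers and 6 pumps above background on all 8 arrays, the efflux medians were -0.41 and -0.36 and the gaps 0.67 and 0.57. Without the Slc22a genes of no settled role, 18 uptake carriers had medians of 0.11 and -0.04 and the gaps were 0.72 and 0.42. Both classes held genes that moved in each direction: Slco1a4 and Slco1a5 lay below, and Abcc4 above, what their class medians show. No test was made of the classes against each other, and the medians rest on 21 and 7 genes that are not replicates.

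With age the gap between the class medians was 0.44 in C57BL/6J and 0.30 in KKAy. In C57BL/6J 3 of the 30 transporters changed with age, against 8.35% of all genes (1.89% higher, 6.46% lower): Slc22a4 rose, and Slco1a5 and Abcc5 fell. In KKAy 7 changed, against 18.6% of all genes (7.9% higher, 10.7% lower): 4 rose, among them Slco1a1, Slc22a4 and Slc22a12, and Slco1a4, Slco1a5 and Abcc9 fell. Of the pumps, 0 of 7 were called with age in KKAy by limma, and 3 of the 7 had an unadjusted p under 0.05. The strain difference changed with age in 2 transporters, Slco1a1 and Abcc9, while 3.81% of all genes had such an interaction, 2.05% positive as in Slco1a1 and 1.76% negative as in Abcc9.

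**Figure D4:**
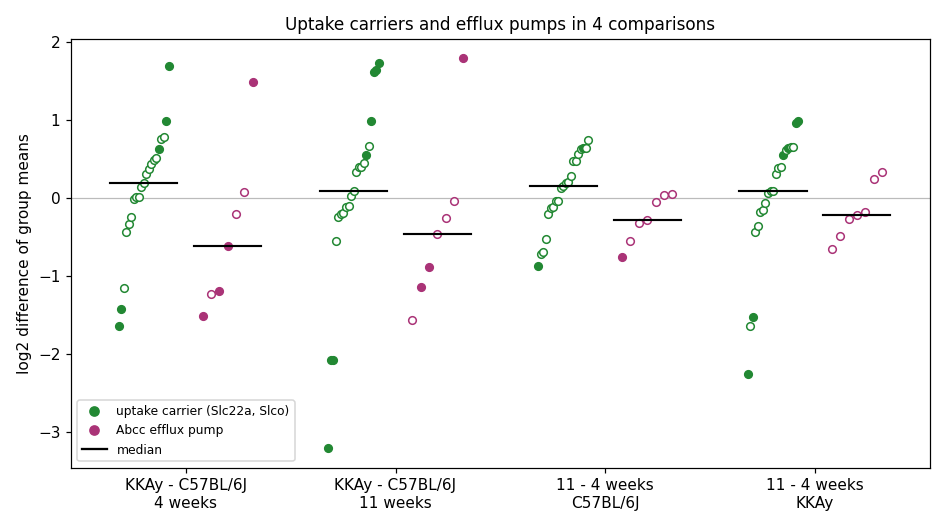
Log2 differences of the 21 uptake carriers and 7 efflux pumps in the 4 comparisons of 2 groups (strain at 4 and at 11 weeks, age in C57BL/6J and in KKAy); each point is a gene, filled points were called in that comparison, and bars are medians. The efflux medians lie below the uptake medians in all 4 comparisons, at -0.62 against 0.20 for strain at 4 weeks, and points of both classes lie on either side of 0.

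Transporters and regulators outside these families give the setting. Of 20 other bile acid and drug transporters, 18 were measured. In KKAy 2 were higher and 1 lower at 4 weeks, and 4 were higher and 1 lower at 11 weeks. Among all genes, 6.41% were higher and 8.99% lower at 4 weeks, and 9.96% and 11.5% at 11 weeks. Slc10a1, the sodium-dependent bile acid carrier of hepatocytes, differed by 0.21 and -0.33 (adjusted p 0.289 and 0.0791 by limma), and Abcb11, the bile salt export pump, by -0.01 and -0.13. At 4 weeks Abcb1a, a drug efflux pump, was higher by 1.50, the bile acid carrier Slc10a2 was higher by 1.62, and the lactate carrier Slc16a1 was lower (-0.49). Abcb1a read low, with mean levels of -4.66 in C57BL/6J and -3.16 in KKAy at 4 weeks (adjusted p 0.0076 by limma). It was above background on only 1 of 2 arrays of each strain at 11 weeks. At 11 weeks the efflux pump Abcg2 (0.73) and Abcb6 (0.64) were among those higher.

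Of 21 regulators and anchors of transporters, all measured, 6 were higher and 4 lower in KKAy at 4 weeks, and 6 were higher and 2 lower at 11 weeks. Beside these, 6.41% of all genes were higher and 8.99% lower at 4 weeks, and 9.96% and 11.5% at 11 weeks. Ezr, a linker of membrane proteins to actin, was higher by 1.46 and 1.61 (adjusted p 0.00102 and 0.000575 by limma). Nr0b2, a repressor induced by bile acids through FXR, was lower at 4 weeks (-1.05, adjusted p 0.00459) and higher at 11 weeks (0.91, adjusted p 0.00624). Nr1i3, the drug sensor CAR, was higher at 4 weeks (0.65, adjusted p 0.00707). Cux2, a repressor of male-predominant genes in female liver, was lower in KKAy at both ages. The 4-week difference was -1.63 (adjusted p 0.00783 by limma), with 1 of 2 KKAy arrays above background. At 11 weeks Cux2 was at least 1.36-fold lower (adjusted p 0.00348 by limma), when it was above background on 0 of 2 KKAy arrays. The bound sets the C57BL/6J mean against the lowest signal that counts as well above background.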

How the data were processed

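Liver RNA was hybridised on 8 one-colour Agilent arrays, grouped by the strain and age in the labels. The authors deposited background-subtracted spot intensity from Agilent Feature Extraction (version 9.5.1.1), per the file headers. The deposited value table holds log2 values equal to the log2 processed signal minus 1 constant per array, with column medians of -3.96 to -3.67; it served as an alternative. Probe positions are on mm8, per the file headers.

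Repeated spots were averaged after control spots and 59 to 89 outlier spots per array were left out, and the 75th percentile of each array was subtracted. A probe was kept if flagged well above background on the 2 arrays of any group (25320 probes), and the brightest stood for its gene (17047 genes). The transporters were named by the files; other genes by GRCm38.p6 RefSeq symbols through an accession for 24496 probes, a symbol for 6234 and an older symbol for 2386, while 8058 kept their file name. Genes renamed into these families since (Slc22a22, Slc22a23, Slc22a26, Slc22a29 and Slc22a30) were not included. The fit used lmFit and eBayes of limma 3.58.1 (R 4.3.3) on group means over all 8 arrays with 4 residual degrees of freedom, and Benjamini-Hochberg adjustment over all genes. The fit was tested on simulated data with independent noise on each array, for strain at 4 weeks. Of 100 genes given a log2 difference of 1 in size, 35% were called, and of 100 given 2, 71%. The simulation held no shared deviation of same-numbered arrays.

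Genes were named if called in any comparison or highest in level in their role group; for the other transporters and the regulators, the 3 smallest adjusted p among those called per strain comparison were named, with Slc10a1 and Abcb11. Some genes that this rule names are counted but are not reported here. The transporters and lists were chosen with earlier results of these data known. The number of arrays limits the precision. Of other marker lists, KKAy had 6 of 10 lymphocyte markers lower at 4 weeks and 4 at 11 weeks. Of 8 measured cholangiocyte markers 1 was lower at each age. Of 4 neutrophil markers 2 were higher at 11 weeks, and of 3 erythroid markers 2 were higher at 4 weeks and 1 at 11 weeks. Of 5 pancreas markers 2 were lower at 4 weeks and 1 was higher at 11 weeks, and of 5 intestine markers 1 was lower at each age and 1 higher at 11 weeks. Beside these marker counts, 6.41% of all genes were higher and 8.99% lower at 4 weeks, and 9.96% and 11.5% at 11 weeks. Alternatives covered background correction, scaling, the filter, the choice of probe, the source of values, the samples fitted, a replicate block and leaving out each array.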

Additional observations from a re-analysis of the deposited data

Results flagged for a closer look

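The strain difference of 2 transporters changed between the ages by the interaction test. For Abcc9 the difference went from 0.73 at 4 weeks to -0.68 at 11 weeks, an interaction of -1.42 (SE 0.16, adjusted p 0.0116 by limma); over 17 alternatives its adjusted p ran from 0.0029 to 0.0899, and 6 of them ended the call. Without replicate 2 of C57BL/6J at 4 weeks it was -1.33 (adjusted p 0.0561), without replicates 1 and 2 of C57BL/6J at 11 weeks -1.39 (0.0899) and -1.45 (0.0796), and without replicates 1 and 2 of KKAy at 4 weeks -1.45 (0.0548) and -1.38 (0.0636). For Slco1a1 the difference went from 0.63 to 1.73, an interaction of 1.10 (SE 0.13, adjusted p 0.0129); its adjusted p ran from 0.0012 to 0.235 and 11 of 17 alternatives ended the call, including each of the 8 that left out 1 array (1.08 to 1.12, adjusted p 0.0502 to 0.0995). Both interactions kept their sign under all 17 alternatives. On their second probes, counted apart from those 17, neither was called: -1.26 for Abcc9 (adjusted p 0.0807) and 0.71 for Slco1a1 (adjusted p 0.46).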

How the results depend on the processing

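Of 34 called transporter values, 15 stayed called under all 18 alternatives (8 of them leaving out 1 array), 19 were lost under at least 1, and 0 changed sign. On the second probe, which 14 of the called values in 5 genes had, 5 stayed called, 8 were lost and 1 was reversed: Slco1a1 for strain at 4 weeks, at -0.031 (adjusted p 0.97 by limma). The 2 other choices of class members in the uptake and efflux comparison were made after seeing the data. Same-numbered arrays deviated together (correlation of replicate 1 minus 2 between groups 0.53 to 0.676), but no label pairs them. With the replicate block, 7471, 9365, 5769, 9105 and 5286 genes and 19, 21, 14, 21 and 14 transporters were called for strain at 4 weeks, strain at 11 weeks, age in C57BL/6J, age in KKAy and the interaction, against 2625, 3660, 1424, 3178 and 650 genes and 10, 12, 3, 7 and 2 transporters without it. Without the filter 1500, 2126, 699, 1467 and 142 genes were called in that order, with 0 transporters for age in C57BL/6J and 0 for the interaction by limma (9 and 9 at an unadjusted p under 0.05). Normexp gave 2349 genes for strain at 11 weeks, 660 and 1897 for age and 324 for the interaction, and class gaps of 0.43 for strain at 4 weeks and 0.22 for age in C57BL/6J. Fitting only the groups compared gave 1401, 2121 and 743 genes for strain at 4 and 11 weeks and age in KKAy, and 6, 1 and 4 transporters for strain at 4 weeks, age in C57BL/6J and age in KKAy. Quantile normalization gave 5 transporters for age in C57BL/6J and a gap of 0.57 for age in KKAy; spike-in scaling gave 1 transporter for age in C57BL/6J, 1 for the interaction and 430 interaction genes; the mean of probes gave a gap of 0.37 for strain at 4 weeks and 1 transporter for the interaction. The causes were not tested.

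Leaving out 1 array gave 1316 to 2586, 1474 to 3071, 461 to 1326, 1344 to 2400 and 62 to 295 genes in the order above, and 5 to 10, 7 to 12, 0 to 3, 5 to 7 and 0 to 1 transporters, with gaps of 0.70 to 0.93, 0.55 to 0.87, 0.28 to 0.60, 0.12 to 0.63 and -0.24 to 0.22; where 0 transporters were called, 5 to 10 had an unadjusted p under 0.05. The lone array left in a group was assumed to vary like the other groups. Scaling moved the share of calls that were higher: for strain at 4 weeks 41.6% became 54.1% with median and 64.2% with spike-in scaling, for age in C57BL/6J 22.7% became 45.0% with median scaling, for age in KKAy 42.4% became 58.2% and 24.7%, and for the interaction 53.8% became 38.8% with spike-in scaling. The median of all genes at 4 weeks was 0.26 with spike-in scaling against 0.01. Transporters near background (Slco4a1, Abcc8 and Abcc10) are the least precise.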
